A study of Mus musculus with 16 samples.

Results

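The core circadian clock genes are the transcription factors and repressors whose mutual feedback gives cells a daily rhythm. The 10 described here were measured in RNA from the mouse hypothalamus and are Arntl, Clock, Npas2, Per1, Per2, Per3, Cry1, Cry2, Nr1d1 and Dbp. They were chosen by gene symbol, as the 10 rows bearing these names among the 45706 gene rows of the deposited count table, and each name had a single row. The study crossed mice with the ROSA-STOP-L10a-bactrap allele, which expresses the ribosomal protein L10a fused to GFP once Cre recombinase acts, so that ribosomes of prepronociceptin (Pnoc) neurons could be precipitated with anti-GFP antibodies. From each of 8 pools of 4 animals, total RNA of the hypothalamus gave an input library and the RNA on precipitated ribosomes gave a pulldown library. Pools 1 to 4 were labelled Control (Lepr-flox) and pools 5 to 8 were labelled Pnoc Lepr deletion, in which the leptin receptor gene Lepr is removed from Pnoc-expressing cells. All 4 groups (control input, control pulldown, deletion input, deletion pulldown) thus held 4 libraries, and all of them carried the L10a allele. The animals were of the C57Bl/6N background, on chow, random fed, 12 weeks old by the treatment protocol and 10 to 12 weeks old by the extraction protocol. They lived under 12 hours of light and 12 hours of darkness, and tissue was taken in the morning. The labels used here do not state the clock hour at which each pool was taken or how Cre was carried in the control pools. Cre under Pnoc tags each cell that expresses it, whatever its type, so the pulldown is a mixture of Pnoc-expressing hypothalamic cells.

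In the clock, CLOCK or its relative NPAS2 pairs with BMAL1, the product of Arntl, and the pair binds E-boxes in DNA to switch on Per, Cry, Nr1d1 and Dbp genes. PER and CRY proteins then enter the nucleus together and repress the pair that switched them on, while NR1D1 (REV-ERB alpha) represses Arntl through ROR elements and DBP activates genes through D-boxes. Levels of most of these transcripts rise and fall over the day in many tissues, with Arntl opposite in phase to Dbp and the Per genes, and the suprachiasmatic nucleus of the hypothalamus sets the timing for the rest of the body.

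Letters matching sites of this loop occur in the promoters of several of the 10 genes. The 4 promoters shown were picked because they hold matches to the E-box, its variant the E′-box, or the D-box. Promoters are those of RefSeq on GRCm38.p6, where 9 of the 10 genes were matched, all but Per2. Each line gives the 250 bases before a RefSeq start, 5′ to 3′ in the direction of the gene, with the matched sites in capitals.
Cry1: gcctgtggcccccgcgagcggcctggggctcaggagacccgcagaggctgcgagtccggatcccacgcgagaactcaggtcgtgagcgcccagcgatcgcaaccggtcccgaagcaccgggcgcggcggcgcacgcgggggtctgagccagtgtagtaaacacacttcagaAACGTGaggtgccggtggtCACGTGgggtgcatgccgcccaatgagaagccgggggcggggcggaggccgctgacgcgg
Per1: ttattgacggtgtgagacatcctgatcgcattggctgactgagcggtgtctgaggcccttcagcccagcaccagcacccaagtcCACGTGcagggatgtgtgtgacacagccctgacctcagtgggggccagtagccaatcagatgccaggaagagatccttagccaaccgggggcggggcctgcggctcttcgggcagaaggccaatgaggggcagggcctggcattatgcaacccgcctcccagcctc
Nr1d1: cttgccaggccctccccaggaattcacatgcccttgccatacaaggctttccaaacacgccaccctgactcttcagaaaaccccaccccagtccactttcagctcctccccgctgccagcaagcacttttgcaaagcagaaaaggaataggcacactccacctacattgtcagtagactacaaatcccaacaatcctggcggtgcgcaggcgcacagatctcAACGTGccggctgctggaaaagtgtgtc
Per3: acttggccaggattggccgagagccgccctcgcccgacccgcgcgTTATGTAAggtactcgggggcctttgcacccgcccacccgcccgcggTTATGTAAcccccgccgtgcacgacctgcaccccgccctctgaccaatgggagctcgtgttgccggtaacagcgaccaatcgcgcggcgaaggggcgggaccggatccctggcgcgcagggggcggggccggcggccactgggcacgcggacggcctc
The Cry1 stretch lies at chr10:85185055-85185304 on the minus strand, the Per1 stretch at chr11:69098699-69098948 on the plus strand, the Nr1d1 stretch at chr11:98775378-98775627 on the minus strand and the Per3 stretch at chr4:151044666-151044915 on the minus strand. The capitals CACGTG in Cry1 (position -60 from the start) and in Per1 (-166) are E-boxes. The capitals AACGTG in Cry1 (-79) and Nr1d1 (-28) are E′-boxes, the variant CACGTT read on the other strand, and Cry2 holds a further one at -166. The capitals TTATGTAA in Per3 (-205 and -158) are D-boxes.

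Motifs were searched on both strands of the 300 bases from 250 before to 50 after each start. The percentages below count promoter entries, while a member counts as a gene if any of its entries matched. These are unlike measures, so no enrichment is read from them. The E-box CACGTG was present in 7.15% of all 32851 promoters in the table and in 2 of the 9 member genes matched. The E′-box CACGTT was present in 4.68% of promoters and in 3 of the 9 genes. The D-box, searched as TTATGTAA or TTACGTAA, was present in 1.06% of promoters and in 1 of the 9 genes. Dbp, Clock and Npas2 held no match to any motif searched. The printed matches do not overlap. The ROR element, the half-site AGGTCA with an A-rich flank before it, was present in 0.219% of promoters, and Arntl was the member that held it, at position 28 after a RefSeq start. That match is printed in capitals within its surroundings at chr7:113207528-113207557 on the plus strand.
Arntl: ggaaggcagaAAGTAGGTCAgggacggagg
The cAMP response element TGACGTCA, present in 1.79% of promoters, was found in none of the 9. The Per1 and Arntl matches lie inside the gene spans given below, so the starts used for them are not the first base of those spans. All matches describe letters in a window and carry no measurement of binding.

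On GRCm38, Arntl (ENSMUSG00000055116) spans 113178471 to 113314126 of chromosome 7 and Dbp (ENSMUSG00000059824) 45705100 to 45710203 of the same chromosome. Npas2 (ENSMUSG00000026077) spans 39193702 to 39363240 and Per2 (ENSMUSG00000055866) 91415977 to 91459351 of chromosome 1. Per1 (ENSMUSG00000020893) spans 69095108 to 69109965 and Nr1d1 (ENSMUSG00000020889) 98767932 to 98775377 of chromosome 11. Clock (ENSMUSG00000029238) spans 76209868 to 76305603 of chromosome 5, Per3 (ENSMUSG00000028957) 150997018 to 151044707 of chromosome 4, Cry1 (ENSMUSG00000020038) 85131700 to 85185054 of chromosome 10 and Cry2 (ENSMUSG00000068742) 92403646 to 92434085 of chromosome 2. Values below are summed over the transcripts of each gene.

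Library totals were 64435952 to 78623636 estimated counts, and the members drew between 258 counts (the lowest library of Npas2) and 14052 counts (the highest of Clock), so all 10 lay far above the floor of 3 counts. Levels are given as CPM, counts scaled to library size and by TMM, a factor that brings the bulk of genes to a common level across the 16 libraries. Pnoc, the gene that drives the tag, was at 7.28 to 10.1 CPM in control pulldown and 2.55 to 2.97 in control input, and at 6.96 to 9.29 against 2.21 to 2.92 in the pools labelled deletion. Lepr was not lower in libraries labelled Lepr deletion, at 2.42 to 2.82 CPM in their pulldown against 1.42 to 1.86 in control pulldown. The count covers the whole gene and the labels used here do not state the deleted part, so it checks nothing about the labels, and directions between genotypes below are between libraries so labelled. Pulldown libraries had little glial RNA: 10 astrocyte markers summed to 3210 to 3593 CPM in control input and 377 to 409 in control pulldown. The sums of 10 GABAergic neuron markers were 1637 to 1924 and 2749 to 3391. Those of 10 general neuronal markers (9322 to 10125 and 14150 to 15850) and 5 glutamatergic markers (198 to 215 and 264 to 314) also rose. In the test described below, 9 GABAergic markers were higher and 1 lower. Of 4 glutamatergic markers tested, 1 was higher and 2 lower. Mitochondrial ribosomal RNA took 23.7% to 28.1% of counts in input libraries and 0.0622% to 0.0844% in pulldown. Within the pulldown groups, pool 1 and pool 5 stood furthest from their fellows, the chi-square of their counts divided by its degrees of freedom reaching 47.5 between pools 1 and 4 and 49.9 between pools 5 and 8, against 8.16 between pools 3 and 4 and 10.9 between pools 7 and 8.

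Per transcript length, Dbp was the most abundant of the 10 and Npas2 the least in all 4 groups. These levels are deposited TPM values, a share of all transcripts of a library corrected for transcript length, the scale on which genes of different length can be set side by side. In control input the order of mean TPM was Dbp (73.1 ± 4.77, SD, n = 4), Nr1d1 (45.7 ± 3.10), Cry2 (36.1 ± 1.37), Clock (25.1 ± 1.08), Cry1 (9.32 ± 0.324), Arntl (7.28 ± 0.744), Per3 (5.99 ± 0.402), Per1 (5.54 ± 0.377), Per2 (3.87 ± 0.328) and Npas2 (1.90 ± 0.280). The highest mean was 38.5 times the lowest. Among the 9 neighbouring pairs in that order, Arntl with Per3 and Per3 with Per1 overlapped between libraries, and the other 7 pairs did not. The repressors Cry1 and Cry2 were thus unequal, Cry2 standing 3.88 ± 0.276 times as high as Cry1, and so were the partners of BMAL1, Clock standing 13.4 ± 1.47 times as high as Npas2.

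In control pulldown the order was Dbp (137 ± 5.69 TPM), Cry2 (79.5 ± 5.39), Nr1d1 (60.3 ± 0.651), Clock (38.8 ± 1.32), Cry1 (25.1 ± 0.288), Arntl (13.2 ± 0.907), Per1 (12.6 ± 1.12), Per3 (9.43 ± 0.527), Per2 (6.94 ± 0.737) and Npas2 (2.15 ± 0.268). Only Arntl and Per1 overlapped as neighbours there, and the span from highest to lowest widened to 63.8. Cry2 changed places with Nr1d1 and Per1 with Per3 relative to control input, where Per1 and Per3 overlapped. In the pools labelled deletion the pulldown order was the same, from Dbp at 117 ± 11.5 TPM to Npas2 at 2.11 ± 0.0935, with Arntl and Per1 and Per3 and Per2 overlapping. Their input order ran from Dbp at 66.9 ± 7.68 to Npas2 at 2.17 ± 0.171, with Nr1d1 and Cry2 and Per1 and Per3 overlapping. Per1 (7.12) already stood above Per3 (5.87) in that input. Ranking by the median in place of the mean left all 10 ranks as they were in each group. A TPM value is a share of all transcripts of its library, mitochondrial RNA included, so this scale shows the order within a library and is not read across fractions.

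**Figure D1:**
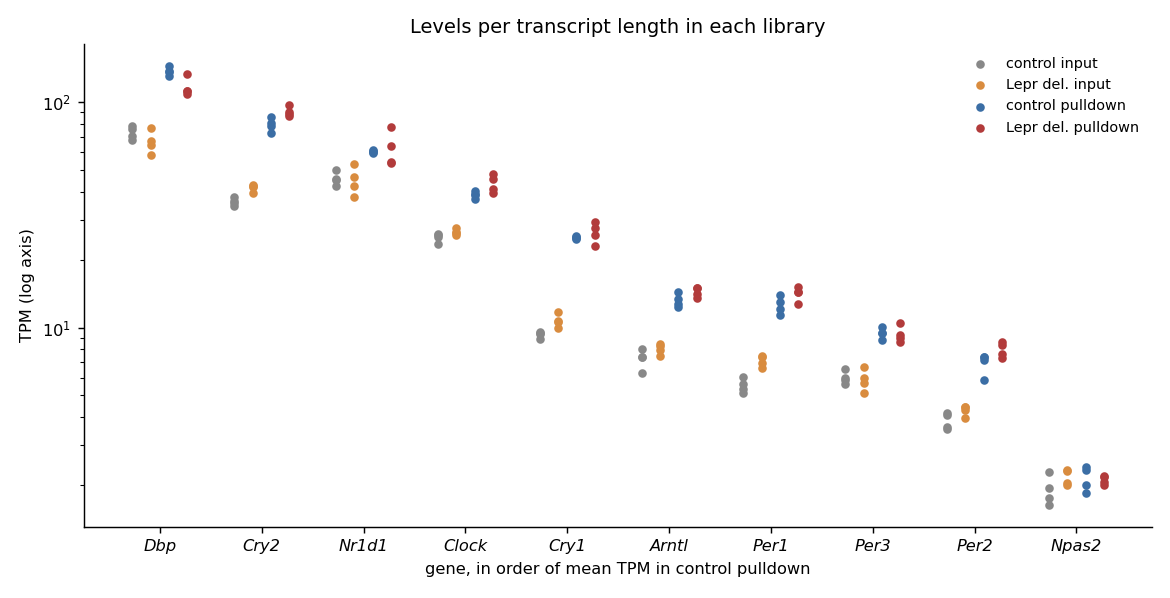
TPM of the 10 clock genes in each of the 16 libraries, on a log axis, with genes ordered by their mean in control pulldown and 1 point per library, coloured by group. Dbp is highest and Npas2 lowest in all 4 groups.

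The first comparison asked how clock transcripts were distributed between the ribosomes of Pnoc-expressing cells and the whole hypothalamus. Relative to the typical gene, the cryptochromes and Per1 were higher on the ribosomes of control Pnoc cells, and Npas2, Nr1d1, Clock and Per3 were lower. Tested with edgeR's quasi-likelihood test and Benjamini-Hochberg adjustment over all genes at 0.05, 7 of the 10 passed in control pools, 3 higher and 4 lower, where 64.8% of the 17570 genes tested passed (30.1% higher, 34.6% lower). In the pools labelled deletion 6 of 10 passed, 2 higher and 4 lower, where 61.6% of 17423 genes passed (28.8% higher, 32.8% lower). Input and pulldown libraries did not overlap for 7 of the 10 in control, as for 59.5% of all genes, and for 4 of the 10 in the pools labelled deletion, as for 56.4%. These shares are near the background, so the count itself says nothing particular about the clock. The median log2 fold change of the 10 was -0.13 in control and -0.10 in the pools labelled deletion, against -0.02 and -0.01 over all genes tested. In such bulk RNA, fewer cells that express a gene and less RNA per cell cannot be told apart.

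**Figure D2:**
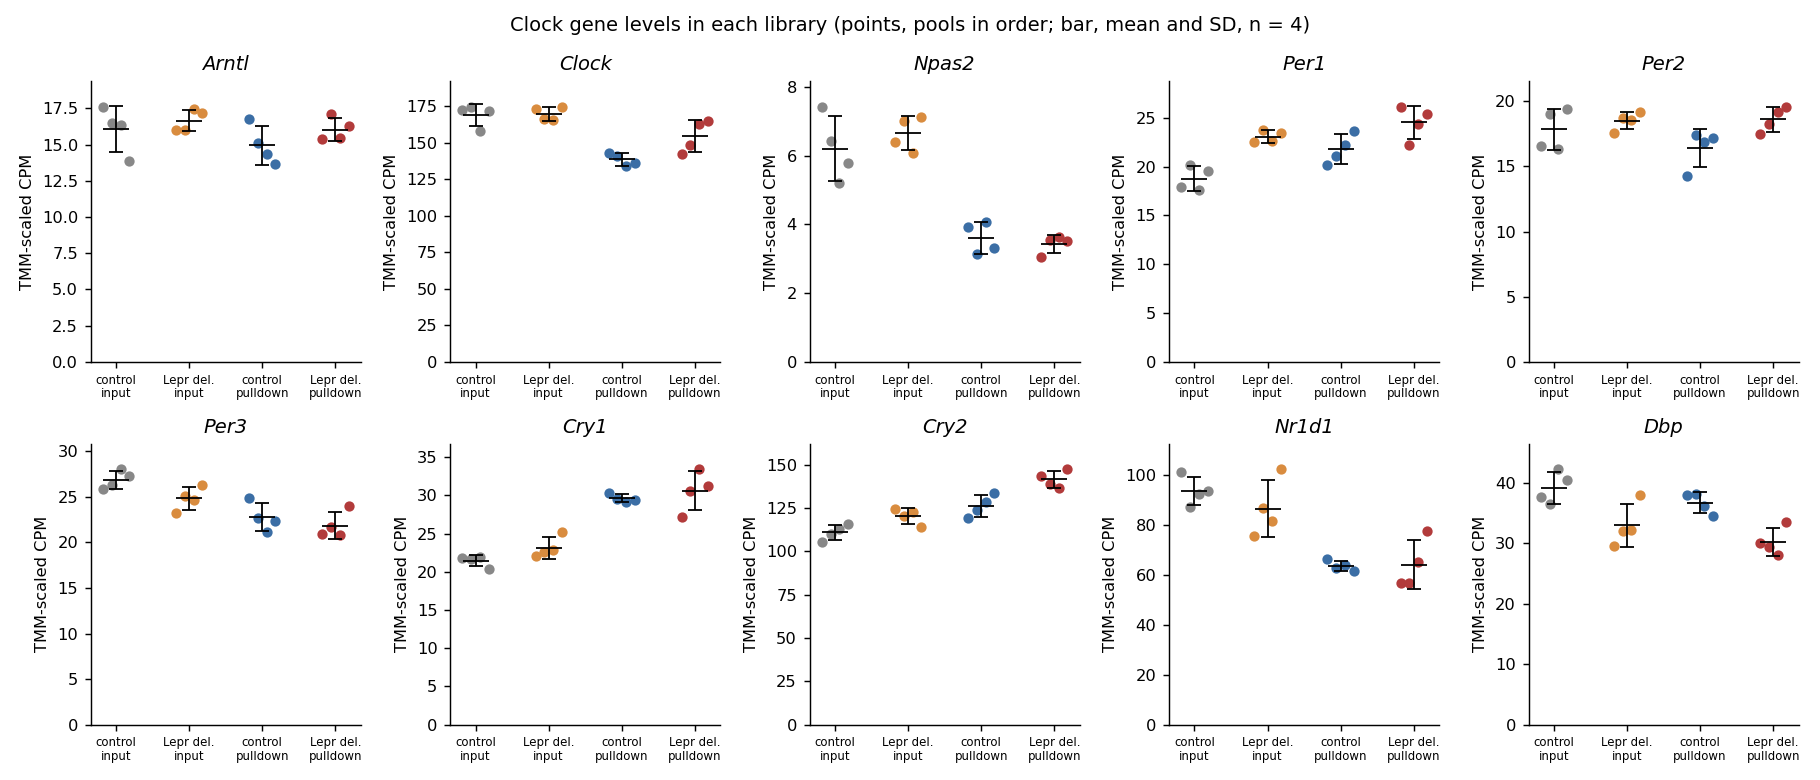
CPM of the 10 clock genes in each library, 1 panel per gene with its own axis starting at 0, grouped as control input, control pulldown, input and pulldown of pools labelled Lepr deletion. Cry1 points lie higher and Npas2 points lower in pulldown than in input of the same genotype, Nr1d1 points lie lower in control pulldown, and the points of pool 8 are the highest of their group for Nr1d1, Dbp and Per3.

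Cry1, a repressor of the BMAL1 pair, showed the highest ratio of pulldown to input among the 10. In control it was at 21.8, 21.6, 21.9 and 20.4 CPM in the input of pools 1 to 4 and at 30.3, 29.5, 29.1 and 29.4 CPM in their pulldown. In pools 5 to 8 it was at 22.0, 22.5, 22.9 and 25.3 CPM in input and 27.2, 30.6, 33.4 and 31.2 CPM in pulldown. No input library reached the lowest pulldown library. The log2 fold change was 0.45 (SE 0.05) in control, or 36.3% higher, and 0.39 (SE 0.07) in the pools labelled deletion (edgeR adjusted p = 7.9e-06 and 0.00030). Within single pools the log2 difference was 0.30 to 0.55, above 0 in 8 of 8.

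Cry2, the closely related cryptochrome, was also higher in pulldown, by less. Its control input values were 105, 110, 113 and 116 CPM and its control pulldown values 119, 124, 128 and 133 CPM, so the groups did not overlap. The pools labelled deletion gave 125, 120, 122 and 114 CPM in input and 143, 139, 136 and 147 CPM in pulldown, again without overlap. The log2 fold changes were 0.17 (SE 0.05) and 0.22 (SE 0.05), with edgeR adjusted p of 0.0092 and 0.00093, and all 8 pools were higher in pulldown. Leaving out genes under a mean of 1 CPM before scaling removed the control calls for Cry2 (0.11, adjusted p = 0.061) and Per1 (0.14, 0.099) and added one for Dbp. Of the 10, 6 then passed, 1 higher and 5 lower, where 67.6% of 13714 genes passed, so this count is near the background too.

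Among the Per genes, which encode the partners of the cryptochromes, Per1 and Per3 moved in opposite directions in control. Per1 was at 17.9, 20.1, 17.5 and 19.5 CPM in control input and 20.2, 21.1, 22.2 and 23.7 CPM in control pulldown. The lowest pulldown library was just above the highest input library, and the log2 fold change was 0.20 (SE 0.07, edgeR adjusted p = 0.027). That call ended when the pulldown library of pool 3 (adjusted p = 0.053) or pool 4 (0.072) was dropped, and likewise the input library of pool 1 (0.067) or pool 3 (0.078), the log2 value staying between 0.16 and 0.24. Per1 in the pools labelled deletion gave 0.08 (SE 0.06, adjusted p = 0.30), and 3 of their 4 pools were higher in pulldown. The difference between the genotypes in this ratio was -0.13 (SE 0.09) and did not pass (edgeR adjusted p = 0.70), so no difference between them was shown.

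Per3 was lower in pulldown in both genotypes. It was at 25.9, 26.3, 28.0 and 27.3 CPM in control input and 24.9, 22.7, 21.2 and 22.3 CPM in control pulldown, with no overlap and a log2 fold change of -0.26 (SE 0.06, edgeR adjusted p = 0.0028). In the pools labelled deletion the input values of 23.3, 25.1, 24.7 and 26.4 CPM overlapped the pulldown values of 21.0, 21.7, 20.8 and 24.0 CPM, with pool 8 highest in each. The log2 fold change there was -0.20 (SE 0.06, adjusted p = 0.018), and the call ended on dropping the pulldown library of pool 7 (0.067) or the input library of pool 6 (0.052) or pool 8 (0.067). Uts2 overlaps Per3 over 4714 bases but was at 0.0144 CPM. Per2, whose product is the best known partner of the cryptochromes in the repressor complex, ranged from 16.4 to 19.4 CPM in control input and from 14.3 to 17.4 in control pulldown, and the log2 fold changes of -0.14 (SE 0.08) and -0.0020 (SE 0.06) did not pass, whereas library totals called it higher (0.41 and 0.45), as TPM did.

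Of the activators, Npas2 had the lowest ratio of pulldown to input of the 10, and Clock was lower by less. Npas2 was at 7.43, 6.42, 5.20 and 5.78 CPM in control input and 3.93, 3.13, 4.07 and 3.32 CPM in control pulldown. In pools 5 to 8 it was at 6.39, 7.02, 6.09 and 7.13 CPM in input and 3.05, 3.54, 3.62 and 3.51 CPM in pulldown. Pulldown values lay below input values throughout, with log2 fold changes of -0.80 (SE 0.13) and -0.97 (SE 0.10), or 42.5% and 48.8% lower (edgeR adjusted p = 0.00021 and 2.9e-06). Pool 3 departed most, at -0.35 within the pool against -0.75 to -1.06 in the other 7.

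Clock was at 172, 175, 158 and 172 CPM in control input and 143, 141, 134 and 137 CPM in control pulldown, without overlap, and the log2 fold change was -0.30 (SE 0.04, edgeR adjusted p = 5.8e-05). Pools 5 to 8 had 173, 166, 166 and 175 CPM in input and 143, 149, 163 and 165 CPM in pulldown. Pulldown of pools 7 and 8 came close to input there, the log2 fold change was -0.14 (SE 0.05, adjusted p = 0.033), and the call ended on dropping the pulldown library of pool 5 (0.099) or pool 6 (0.11) or the input library of pool 5 (0.060), pool 6 (0.054) or pool 8 (0.088). DESeq2 did not call it either (adjusted p = 0.053), nor did edgeR without a low-count filter (0.087), while the authors' deposited table gives -0.13 with an adjusted p of 0.048. The genotype difference in this ratio was 0.15 (SE 0.07), the one member with an unadjusted p under 0.05 (0.042), and did not pass over all genes (edgeR adjusted p = 0.54). Arntl, whose product is the obligate partner of both, was at 13.9 to 17.6 CPM in control input and 13.7 to 16.8 in control pulldown. Its log2 fold changes of -0.12 (SE 0.09) and -0.06 (SE 0.07) did not pass. Arntl was called lower in control without the input library of pool 4 (-0.19, adjusted p = 0.047), and higher with library totals (0.42 in control and 0.39 in the pools labelled deletion, adjusted p = 0.00081 and 0.00012) and with TPM.

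Nr1d1, the repressor of Arntl, was lower in pulldown, and Dbp, an output factor of the clock, did not pass. Nr1d1 was at 101, 87.2, 92.6 and 93.5 CPM in control input and 66.2, 62.8, 63.9 and 61.7 CPM in control pulldown. The gap between the groups far exceeded the spread within them, and the log2 fold change was -0.57 (SE 0.05), or 32.8% lower (edgeR adjusted p = 8.9e-07). In the pools labelled deletion input values were 75.5, 86.6, 81.7 and 102 CPM and pulldown values 56.8, 56.6, 65.2 and 77.6 CPM, so the groups overlapped through pool 8, although pulldown was below input within each pool (-0.61 to -0.32). The log2 fold change was -0.44 (SE 0.11, adjusted p = 0.0024). Nr1d1 shares 1075 bases with Thra, a thyroid hormone receptor gene on the opposite strand, whose ratio went the other way (0.52 in control, 0.45 in the pools labelled deletion), and the strand setting of the counting was not given, so reads in that stretch are uncertain.

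Dbp was at 37.7, 36.4, 42.2 and 40.5 CPM in control input and 38.0, 38.2, 36.1 and 34.4 CPM in control pulldown, with overlapping groups. The log2 fold changes of -0.11 (SE 0.06, adjusted p = 0.11) and -0.13 (SE 0.08, adjusted p = 0.15) did not pass in either genotype, and their intervals of -0.24 to 0.01 and -0.30 to 0.04 include both no change and a loss. With genes under a mean of 1 CPM left out, Dbp was called lower in control (-0.17, adjusted p = 0.021). With library totals it was called higher in both genotypes (0.43 and 0.32, adjusted p = 2.8e-05 and 0.0026), and so it was with TPM.

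**Figure D3:**
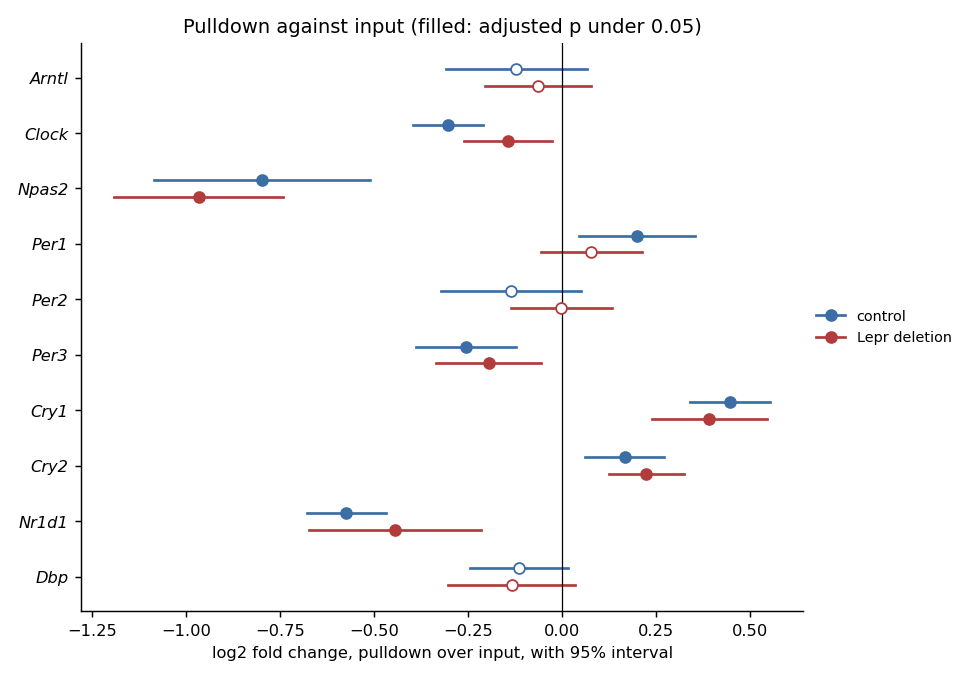
Log2 fold change of pulldown over input for each clock gene, with its 95% interval, in control pools (blue) and in pools labelled Lepr deletion (red), filled where the adjusted p is under 0.05. Cry1 and Cry2 lie to the right of 0 and Npas2, Nr1d1, Clock and Per3 to the left in both genotypes, while the intervals of Arntl, Per2 and Dbp span 0 in both.

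The directions above are relative to the bulk of genes, and scaling sets where 0 lies. With TMM the median log2 fold change of all genes in control was -0.02, with library totals it was 0.53, and with log2(TPM + 1) it was 0.75. Those scales take all RNA of a library as the total, mitochondrial RNA included. Library totals gave 8 of the 10 higher and 0 lower in control, with Clock at 0.24, Per3 at 0.29, Nr1d1 at -0.03 and Npas2 at -0.25, and log2(TPM + 1) gave 9 higher and 0 lower. Of all 17570 genes tested, 64.8% were called with TMM, 79.9% with library totals and 85.8% with log2(TPM + 1). The share of called genes that were higher went from 46.5% with TMM to 76.2% with library totals and 84.3% with log2(TPM + 1). These member counts thus moved together with those of all genes. Measured from the median of all genes, Cry1 (0.39 to 0.64), Per1 (0.14 to 0.39) and Cry2 (0.11 to 0.36) were above it, and Npas2 (-0.86 to -0.61), Nr1d1 (-0.63 to -0.36), Clock (-0.36 to -0.11) and Per3 (-0.32 to -0.06) below it, under all 12 settings in control. In the pools labelled deletion the same held for all 12 settings except for Clock, which was below the median under 10 of 12 (-0.20 to 0.03). Arntl, Per2 and Dbp lay on either side of the median depending on the setting.

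**Figure D4:**
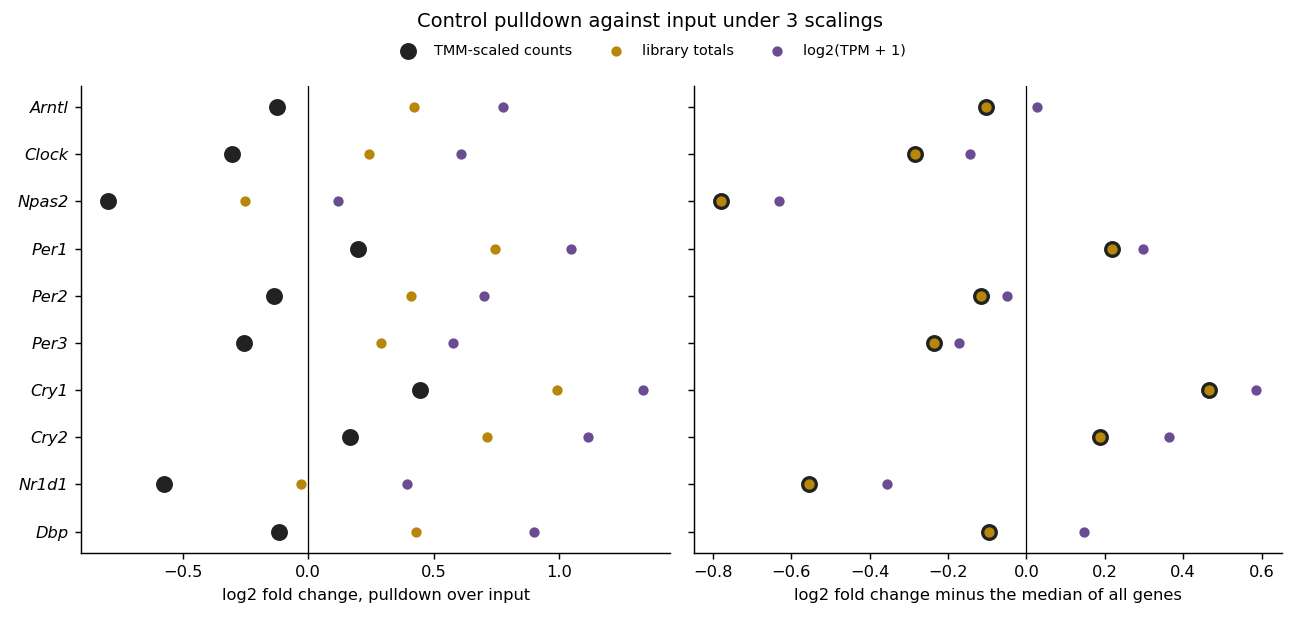
Log2 fold change of pulldown over input in control pools for each clock gene under TMM-scaled counts (large black points), library totals (ochre) and log2(TPM + 1) (purple), as computed on the left and after subtraction of the median of all genes on the right. On the left most ochre and purple points move to the right of 0, and on the right the ochre points fall on the black ones and Npas2, Nr1d1, Clock and Per3 stay to the left of 0.

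The wider clock pathway also held genes of both directions. Of 33 further clock genes, covering paralogues, ROR receptors, kinases, ubiquitin ligases and chromatin factors, 10 were higher and 10 lower in control pulldown, where 30.1% and 34.6% of all genes were. The pools labelled deletion gave 14 and 9, against 28.8% and 32.8% of all genes. Their median log2 fold changes were 0.03 and 0.09. Rora and Rorb, which encode activators of Arntl that compete with REV-ERB proteins, were lower. Rora was at 213 to 245 CPM in control input and 132 to 144 in control pulldown, a log2 fold change of -0.78 (SE 0.05). Rorb gave -0.51 (SE 0.06). With log2(TPM + 1) the values for Rora and Rorb were 0.29 and 0.45, below the median of all genes of 0.75.

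Nr1d2, the paralogue of Nr1d1 that encodes REV-ERB beta, was higher in pulldown. It was at 132, 134, 129 and 129 CPM in control input and 195, 183, 169 and 167 CPM in control pulldown. Its log2 fold change was 0.43 in control (SE 0.05) and in the pools labelled deletion (SE 0.05), where Nr1d1 gave -0.57 and -0.44. Hdac3, the deacetylase recruited by REV-ERB proteins through a corepressor, was higher at 0.52 (SE 0.04) and 0.55 (SE 0.05). The BMAL1 paralogue gene Arntl2 was at 2.71 to 3.41 CPM in control input and 1.85 to 2.18 in pulldown, at -0.62 (SE 0.13), and did not pass in the pools labelled deletion (-0.37, edgeR adjusted p = 0.051). Sirt1, a deacetylase that acts on clock proteins, was at -0.52 (SE 0.07) in control, and Usp2, a deubiquitinase, and Timeless were at -0.60 (SE 0.07) and -0.55 (SE 0.13) in the pools labelled deletion. Among the D-box factors related to Dbp, Hlf was lower at -0.26 (SE 0.08) and -0.27 (SE 0.06), the control call ending when the pulldown library was dropped for pool 2 (0.053), pool 3 (0.060) or pool 4 (0.058). Tef was higher in the pools labelled deletion (0.13, SE 0.04, but 0.01 with length-rescaled counts), and gave 0.06 (SE 0.04) in control. Nfil3, a repressor at D-boxes, passed in neither (0.15, SE 0.09 and 0.21, SE 0.10).

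Markers of the suprachiasmatic nucleus, the seat of the master clock, went both ways. Of 17 such genes 6 were higher and 5 lower in control, where 30.1% and 34.6% of all genes were, so these counts are near the background. The pools labelled deletion gave 5 and 7, against 28.8% and 32.8%, and the medians were 0.08 and -0.21. The genes with the largest changes, Vip, Avp and Prok2, encode peptides made in that nucleus and were lower. Vip was at 3.22, 3.63, 3.34 and 4.49 CPM in control input and 1.06, 1.07, 0.564 and 0.802 CPM in control pulldown, a log2 fold change of -2.09 (SE 0.21). Avp, also made by other hypothalamic nuclei, gave -4.83 (SE 0.40), from 9.81 to 38.0 CPM in input to 0.528 to 1.08 CPM in pulldown, and Prok2 gave -1.24 (SE 0.24). Of the 6 higher genes in control, the transcription factor gene Lhx1 gave 1.07 (SE 0.12) and the other five lay between 0.15 (Zfhx3) and 0.72 (Calcr). Which neurons among the Pnoc-expressing cells carried the clock transcripts was not tested.

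The second comparison asked whether clock transcripts differed between the genotypes. None of the 10 passed edgeR's test at an adjusted p of 0.05 in either fraction. In pulldown 0 of 10 passed, where 0.641% of 16859 genes did, and 5 of 10 had an unadjusted p under 0.05, where 19.8% of genes did. In input 0 of 10 passed, where 0.231% of 17735 genes did, and 3 of 10 had an unadjusted p under 0.05, where 14% did. DESeq2 called Dbp and Cry2 in pulldown and Per1 in input, and so did the authors' deposited table. Over all genes DESeq2 called more than edgeR, 3.87% of 27163 in pulldown and 1.24% of 28847 in input. The log2 fold changes of the 10 lay between -0.27 and 0.19 in pulldown and between -0.25 and 0.30 in input. Their 95% intervals reached no further than -0.41 and 0.36 in pulldown and -0.41 and 0.43 in input. These intervals reflect only the spread among the pools of each label. The clock hour of each pool is not stated, so genotype and hour of collection cannot be told apart here. The medians of 0.09 and 0.05 stood beside -0.010 and -0.0025 over all genes.

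Dbp had the largest difference in pulldown and was lower in the libraries labelled deletion in both fractions. In pulldown the control pools had 38.0, 38.2, 36.1 and 34.4 CPM and pools 5 to 8 had 30.0, 29.3, 28.0 and 33.4 CPM, so the groups did not overlap, as for 10% of all genes tested. The log2 fold change was -0.27 (SE 0.06), or 16.9% lower, with an edgeR adjusted p of 0.081. In input the control pools had 37.7, 36.4, 42.2 and 40.5 CPM and pools 5 to 8 had 29.6, 32.0, 32.2 and 37.9 CPM. Pool 8 reached into the control range there, and the log2 fold change was -0.25 (SE 0.07, adjusted p = 0.18). The ratio of pulldown to input did not differ between genotypes beyond its error (-0.03, SE 0.10, adjusted p = 0.96).

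The call for Dbp in pulldown turned on the tool and on single libraries. It passed with DESeq2 (-0.27, adjusted p = 0.0063), without a low-count filter (0.043), with all 16 libraries in a single fit (0.046), without the pulldown library of pool 5 (0.040), and without pools 1 and 5 together (-0.25, 0.022). It did not pass under the other settings, whose adjusted p ranged from 0.057 to 0.27. The authors' deposited table gives -0.27 with an adjusted p of 0.0059 for it in pulldown and -0.25 with 0.064 in input. Sphk2, which overlaps Dbp over 741 bases, was at -0.01 in both fractions.

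Per1 had the largest difference in input and was higher in the libraries labelled deletion. Its input values were 17.9, 20.1, 17.5 and 19.5 CPM in control and 22.5, 23.7, 22.6 and 23.5 CPM in pools 5 to 8, without overlap, as for 6.87% of all genes tested. The log2 fold change was 0.30 (SE 0.06), or 1.23 times the control level, with an edgeR adjusted p of 0.078. In pulldown Per1 was at 20.2, 21.1, 22.2 and 23.7 CPM in control and 26.1, 22.3, 24.4 and 25.3 CPM in pools 5 to 8, where pool 6 fell within the control range, and the log2 fold change was 0.18 (SE 0.07, adjusted p = 0.19). The input difference passed with DESeq2 (adjusted p = 0.0036), with library totals (0.37, 0.027), without a low-count filter (0.027), without the input library of pool 5 (0.047) or pool 1 (0.049), and without both pools (0.29, 0.017). Its adjusted p ranged from 0.057 to 0.29 under the other settings. The authors' deposited table gives 0.30 with an adjusted p of 0.0038 in input and 0.18 with 0.12 in pulldown.

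Cry2 and Clock were higher in the pulldown of libraries labelled deletion without passing the test. Cry2 was at 119, 124, 128 and 133 CPM in control pulldown and 143, 139, 136 and 147 CPM in pools 5 to 8, which did not overlap, with a log2 fold change of 0.18 (SE 0.05, edgeR adjusted p = 0.10). In input it gave 0.12 (SE 0.05, adjusted p = 0.29). DESeq2 called the pulldown difference (adjusted p = 0.032), as did the authors' deposited table (0.18, adjusted p = 0.031). Clock was at 143, 141, 134 and 137 CPM in control pulldown and 143, 149, 163 and 165 CPM in pools 5 to 8, and gave 0.17 (SE 0.05, adjusted p = 0.13). It passed without the pulldown library of pool 5 (0.20, adjusted p = 0.038) and without pools 1 and 5 together (0.22, 0.0075), and its input values gave 0.01 (SE 0.04).

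Per2 stood higher in the pulldown of pools 5 to 8, at 17.5, 18.3, 19.1 and 19.6 CPM against 14.3, 17.4, 16.9 and 17.2 in control, without overlap, and its log2 fold change was 0.19 (SE 0.08, edgeR adjusted p = 0.20). Cry1 in input did not overlap between genotypes either, at 20.4 to 21.9 CPM in control and 22.0 to 25.3 in pools 5 to 8, and gave 0.11 (SE 0.06, adjusted p = 0.44). In all, the libraries of the genotypes did not overlap for 3 of the 10 in pulldown, against 10% of all genes, and for 2 in input, against 6.87%. The remaining differences had intervals that included 0. In pulldown Arntl gave 0.11 (SE 0.07), Npas2 -0.06 (SE 0.11), Per3 -0.05 (SE 0.07), Cry1 0.06 (SE 0.06) and Nr1d1 0.02 (SE 0.09), with intervals that reached from -0.31 (Npas2) to 0.27 (Arntl). In input Arntl gave 0.05 (SE 0.08), Npas2 0.10 (SE 0.12), Per2 0.05 (SE 0.07), Per3 -0.11 (SE 0.06) and Nr1d1 -0.11 (SE 0.08). Their intervals reached from -0.28 (Nr1d1) to 0.35 (Npas2).

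**Figure D5:**
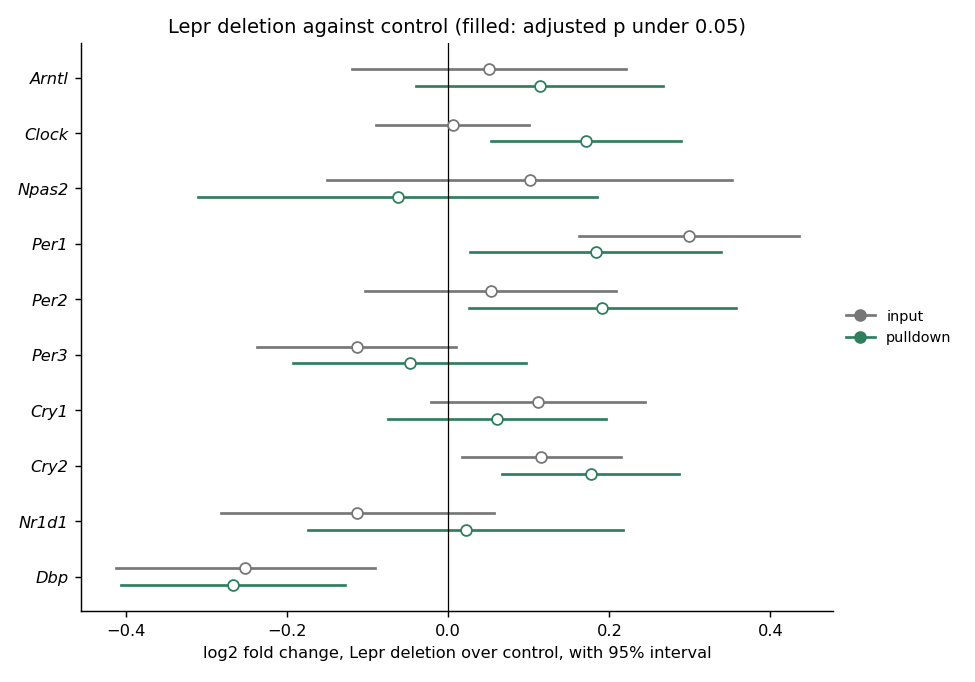
Log2 fold change of libraries labelled Lepr deletion over control for each clock gene, with its 95% interval, in pulldown and in input, with no gene at an adjusted p under 0.05. Dbp lies furthest to the left in both fractions and Per1 furthest to the right in input.

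The ratio of Dbp to Per1, the members that were lowest and highest between the genotypes in input, was compared on the TPM scale. Dbp stood 13.2 times as high as Per1 in control input and 9.37 times in input labelled deletion, and 11.0 and 8.24 times in the corresponding pulldowns. As the pair was picked for its difference, no test is given.

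The test of the genotype difference in the ratio of pulldown to input used all 16 libraries, and 0 of the 10 passed, where 0.0108% of 18530 genes did. At an unadjusted p under 0.05 there was 1 of the 10 (Clock, above), where 8.96% of genes had one. The 10 log2 differences lay between -0.18 (Npas2, SE 0.17) and 0.15 (Clock), and their 95% intervals between -0.53 and 0.39. DESeq2 called none of the 10 either, where it called 0.0923% of 30329 genes.

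In the wider pathway 2 of 33 genes passed between genotypes in pulldown, both higher in libraries labelled deletion, and 0 of 33 in input, where 0.641% and 0.231% of all genes passed. Both encode beta-TrCP ubiquitin ligase subunits, which mark PER proteins for destruction. Btrc was at 101, 100, 101 and 101 CPM in control pulldown and 113, 121, 128 and 118 CPM in pools 5 to 8 (log2 fold change 0.26, SE 0.05, edgeR adjusted p = 0.041). Fbxw11 was at 131, 129, 127 and 128 CPM and 140, 153, 147 and 151 CPM (0.21, SE 0.04, adjusted p = 0.049). Neither group overlapped, but dropping the pulldown library of any of pools 2, 3, 4, 6, 7 and 8 ended both calls (adjusted p of 0.094 to 0.20 for Btrc and 0.12 to 0.21 for Fbxw11) and with library totals (0.058 and 0.078). Nr1d2, at 195, 183, 169 and 167 CPM against 157, 155, 154 and 155 CPM, gave -0.19 (SE 0.05, adjusted p = 0.092) and passed without the pulldown library of pool 5 (0.039). With single input libraries left out, Nr1d2 in input lay between -0.23 and -0.18 and did not pass (lowest edgeR adjusted p = 0.055). Nfil3 gave 0.34 (SE 0.09, adjusted p = 0.095) and passed without the pulldown library of pool 1 (0.037). Without pools 1 and 5 together, 14 of the 33 passed in pulldown and 8 in input, where 3363 of 16918 genes (19.9%) and 1957 of 17838 (11.0%) did.

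Other lists were read in the same libraries, since light, feeding and neuronal activity act on Per1. Of 20 immediate early genes, which neurons switch on within minutes of activity, 1 was higher and 2 lower in pulldown labelled deletion, and 2 were higher in input, where 0.641% and 0.231% of all genes passed in either direction. Nr4a3 was higher in both fractions (0.57, SE 0.10 in pulldown and 0.44, SE 0.07 in input), Fosl2 in input (0.47, SE 0.07), and Npas4 (-0.83, SE 0.13) and Btg2 (-0.63, SE 0.12) were lower in pulldown. No suprachiasmatic marker of 17 passed between genotypes in either fraction. The 10 GABAergic markers summed to 2749 to 3391 CPM in control pulldown and 3395 to 3660 in pools 5 to 8, and the 5 glutamatergic markers to 264 to 314 and 193 to 251 CPM. Gene by gene, 0 of the 10 GABAergic markers passed in pulldown, with 5 above 0 and 5 below, and 0 of 4 glutamatergic markers tested. The 10 astrocyte markers summed to 377 to 409 CPM in control pulldown and 383 to 421 in pools 5 to 8, and 0 of 10 passed, with all 10 log2 values above 0 and a median of 0.19. In input they summed to 3210 to 3593 CPM in control and 2911 to 3161 in pools 5 to 8. There 1 of 10 passed, lower, with 4 log2 values above 0 and 6 below. In input 0 of 10 GABAergic, 0 of 5 glutamatergic and 0 of 9 vascular markers passed. All 9 vascular log2 values were above 0 in input, with a median of 0.40. The part of these lists in the clock gene values was not tested.

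The pools also varied among themselves. Pool 8 had the highest Nr1d1, Dbp and Per3 of pools 5 to 8 in both fractions, at 102 and 77.6 CPM for Nr1d1, 37.9 and 33.4 for Dbp and 26.4 and 24.0 for Per3. Without its pulldown library the genotype difference in pulldown was -0.33 for Dbp (adjusted p = 0.074) and -0.10 for Nr1d1, whose value with all libraries was 0.02. Deviations from the group means over the 16 libraries ran together for Per3 and Dbp (Pearson r = 0.79), Nr1d1 and Dbp (0.69), Per3 and Nr1d1 (0.63), Cry1 and Nr1d1 (0.62), Per1 and Per2 (0.60), Clock and Cry1 (0.56) and Clock and Nr1d1 (0.55). They ran opposite for Arntl and Cry2 (-0.69), Arntl and Per1 (-0.66), Npas2 and Cry2 (-0.57), Cry1 and Cry2 (-0.56) and Arntl and Per2 (-0.56). These are the 12 pairs furthest from 0 of the 45, the next lying at 0.49. Arntl did not run opposite to Dbp (0.19), Per3 (0.34) or Nr1d1 (0.20), and Per1 with Dbp gave -0.10. These values are descriptions over 8 pools, since the input and pulldown of a pool share a lysate, and all genes of a library share its depth and scaling. By the same measure, among 10860 genes with a mean log2 CPM of at least 2, the genes closest to Arntl were Mnat1 (0.95), Them4 (0.93), Mrpl24 (0.90), Mras (0.89) and Ncoa5 (0.89). Those closest to Dbp were Tsr2 (0.89), Gstz1 (0.87), Apopt1 (0.87), Pik3c3 (0.85) and Eif3l (0.84). In control pulldown the coefficient of variation ran from 1.77% (Cry1) to 12.7% (Npas2).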

How the data were processed

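RNA was measured in 16 libraries, 4 in each of 4 groups taken from the labels. Salmon 1.10.1, DESeq2 1.38.3 and the build GRCm38 are named in the submitters' processing notes, and the sources used here do not give the trimming, annotation release or strand setting. The authors deposited estimated counts per gene, estimated counts rescaled for length, and TPM. For 4 comparisons the authors deposited log2 fold changes with their adjusted p-values. Estimated counts were rounded and tested with edgeR 4.0.16 (R 4.3.3) by the quasi-likelihood test, two-sided, with TMM scaling, filterByExpr (minimum count 10, minimum total 15) and Benjamini-Hochberg adjustment at 0.05 over all genes tested. A comparison between 2 groups used their 8 libraries, and the difference of pulldown to input ratios used all 16. Alternatives were RLE factors, library totals, other filters, DESeq2 1.42.0, rescaled counts, limma 3.58.1 on log2(TPM + 1) and log2(TPM + 0.1), removal of mitochondrially encoded genes, a fit of all libraries, each library left out and pools 1 and 5 left out.

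The 10 genes and the gene lists were chosen with earlier results of these data known. From the wider pathway list, whose 33 genes had a row in the table, the text names up to 6 passing genes with the largest change per comparison, with Arntl2, Nr1d2, Tef, Hlf and Nfil3, and from each other list up to 3. Lhx1, Zfhx3 and Calcr were named after their values were seen. Input and pulldown of a pool came from the same lysate per the labels' extraction protocol. The correlation of deviations from the group means, within a pool, was 0.12 to 0.62, and all 8 pools exceeded 0.1. For 7 pools the pulldown correlated best with the input of its own number, and for pool 3 it did not. The numbers were taken to pair the samples. The main fits did not use this pairing, and the pool was run as a block only as a further alternative. Pools are separate sets of animals, and no value exists for a single animal. Replicate libraries differed by more than counting noise (for 24 pairs, chi-square divided by its degrees of freedom lay between 8.16 and 49.9). Library totals were 64435952 to 78623636 counts, and intervals are at 95%. A gene that the rule would name from the wider pathway list is not reported here.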

Additional observations from a re-analysis of the deposited data

Results flagged for a closer look

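Per2 in control pulldown had a library far from the other 3 of its group. Pool 1 was at 14.3 CPM, and pools 2, 3 and 4 were at 17.4, 16.9 and 17.2 CPM. The gap from pool 1 to its nearest neighbour was 0.836 of the range of the group, above Dixon's 95% critical value for 4 libraries. It was the only one of 40 groups of 4 libraries (10 genes in 4 groups) to pass that value, and chance flags about 1 in 20 groups. In the input of the same pool Per2 was at 16.6 CPM, within the range of 16.4 to 19.4 CPM of the control input. Without that library the genotype difference of Per2 in pulldown was 0.12 on the log2 scale.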

How the results depend on the processing

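Mean and median gave the 10 genes the same ranks by TPM in all 4 groups. In the comparison of genotypes in pulldown, the 10 clock genes kept their side of the median of all genes under the 11 settings of scaling, filter and tool, while Npas2 and Per3 changed sign without pools 1 and 5. The count of clock genes called in pulldown over input lay between 6 and 9 in control and between 4 and 9 in the pools labelled deletion under all settings, libraries left out included. The share of all genes called lay between 44.3% and 86.1% in control and between 42.1% and 84.6% in the pools labelled deletion. Each member had at least 258 counts in every library, and each group had 4 pools. The pool as a replicate block changed no call of a clock gene. With the block, 7 of the 10 passed in control and 6 in the pools labelled deletion, as without it, where 69.3% and 63.4% of all genes passed. Per1 in control gave 0.20 with the block (adjusted p = 0.0073). Pools 1 and 5 were left out of the input comparison and of the difference of ratios as a choice made after seeing the data, and left out of the pulldown comparison as an alternative listed earlier.

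The pulldown to input ratios depend on the scaling more than on any other choice, since library totals and TPM move the median of all genes. The cause of single changes of sign near 0 was not tested. With library totals, the log2 values of opposite sign between genotypes in pulldown were Nr1d1 -0.0072. Those between genotypes in input were Tef 0.051. Those in control pulldown over input were Arntl 0.42, Clock 0.24, Per2 0.41, Per3 0.29, Dbp 0.43, Sirt1 0.028, Rorb 0.037 and Hlf 0.28. The values in pulldown over input of pools labelled deletion were Arntl 0.39, Clock 0.31, Per2 0.45, Per3 0.26, Nr1d1 0.0094, Dbp 0.32, Arntl2 0.084 and Hlf 0.18. The values in the genotype difference of that ratio were Arntl -0.033, Per3 -0.031 and Cry2 -0.034. On log2(TPM + 1) with limma, the log2 values of opposite sign between genotypes in input were Tef 0.034. Those in control pulldown over input were Arntl 0.78, Clock 0.61, Npas2 0.12, Per2 0.70, Per3 0.58, Nr1d1 0.40, Dbp 0.90, Rora 0.29, Arntl2 0.19, Sirt1 0.22, Rorb 0.45 and Hlf 0.70. Those in pulldown over input of pools labelled deletion were Arntl 0.77, Clock 0.69, Per2 0.77, Per3 0.59, Nr1d1 0.45, Dbp 0.79, Rora 0.30, Usp2 0.20, Timeless 0.27, Arntl2 0.33 and Hlf 0.63. The values in the genotype difference of that ratio were Arntl -0.010 and Cry2 -0.011. On log2(TPM + 0.1) with limma, the log2 values of opposite sign between genotypes in input were Tef 0.035. Those in control pulldown over input were Arntl 0.85, Clock 0.63, Npas2 0.17, Per2 0.82, Per3 0.65, Nr1d1 0.40, Dbp 0.91, Rora 0.29, Arntl2 0.29, Sirt1 0.25, Rorb 0.46 and Hlf 0.71. Those in pulldown over input of pools labelled deletion were Arntl 0.83, Clock 0.70, Per2 0.88, Per3 0.66, Nr1d1 0.46, Dbp 0.80, Rora 0.30, Usp2 0.23, Timeless 0.38, Arntl2 0.49 and Hlf 0.64. The values in the genotype difference of that ratio were Arntl -0.018 and Cry2 -0.013. Per2 in the pools labelled deletion, at -0.0020 in pulldown over input, turned to 0.0070 with RLE factors, 0.024 with no low-count filter, 0.015 with DESeq2, 0.0042 with mitochondrially encoded genes removed and 0.0078 with all 16 libraries in one fit. With length-rescaled counts, the values of opposite sign were Clock -0.013 between genotypes in input, Arntl2 -0.030 between genotypes in input and Tef -0.079 in control pulldown over input. Under a minimum mean of 1 CPM, the values of opposite sign were Tef -0.0026 in control pulldown over input. Leaving out pools 1 and 5 together, the values of opposite sign were Npas2 0.029 between genotypes in pulldown, Per3 0.013 between genotypes in pulldown, Arntl2 -0.046 between genotypes in input and Tef 0.016 between genotypes in input.

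Genes called over the whole table between genotypes in pulldown numbered 108, against 266 with no low-count filter, 1050 with DESeq2, 16 with length-rescaled counts, 18 with limma on log2(TPM + 1), 13 with limma on log2(TPM + 0.1), 508 with all 16 libraries in one fit and 3363 without pools 1 and 5 together. Clock genes called between genotypes in pulldown numbered 0, against 1 with no low-count filter, 2 with DESeq2, 1 with all 16 libraries in one fit and 2 without pools 1 and 5 together. Genes called over the whole table between genotypes in input numbered 41, against 108 with library totals, 261 with no low-count filter, 359 with DESeq2, 11 with length-rescaled counts, 14 with limma on log2(TPM + 1), 9 with limma on log2(TPM + 0.1) and 1957 without pools 1 and 5 together. Clock genes called between genotypes in input numbered 0, against 1 with library totals, 1 with no low-count filter, 1 with DESeq2 and 1 without pools 1 and 5 together. Genes called over the whole table in the genotype difference of that ratio numbered 2, against 4 with RLE factors, 4 with library totals, 6 with no low-count filter, 28 with DESeq2, 0 with length-rescaled counts, 1 with limma on log2(TPM + 1), 0 with limma on log2(TPM + 0.1), 4 with the pool as a replicate block and 87 without pools 1 and 5 together.

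Leaving out each library or pool in turn gave 19 to 1262 all genes called between genotypes in pulldown, 0 to 2 clock genes called between genotypes in pulldown, Nr1d1 at -0.097 to 0.068 between genotypes in pulldown, Npas2 at -0.13 to 0.0031 between genotypes in pulldown, 19 to 402 all genes called between genotypes in input, 0 to 1 clock genes called between genotypes in input, Clock at -0.025 to 0.023 between genotypes in input, Arntl2 at -0.054 to 0.12 between genotypes in input, Arntl at -0.019 to 0.097 between genotypes in input, Per2 at -0.028 to 0.034 in pulldown over input of pools labelled deletion, Dbp at -0.074 to 0.026 in the genotype difference of that ratio, 1 to 3 all genes called in the genotype difference of that ratio and Per3 at -0.0016 to 0.12 in the genotype difference of that ratio.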
